A study of Mus musculus with 4 samples.

Results

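Gata4 binding was examined at 10 genes of the pluripotency network, *Pou5f1*, *Nanog*, *Sox2*, *Klf4*, *Klf2*, *Esrrb*, *Zfp42*, *Tfcp2l1*, *Prdm14* and *Lin28a*, out of 22225 protein-coding genes of the mouse annotation. The genes were chosen by name, as core factors and markers of undifferentiated ES cells, and every deposited peak within 5 kb or within 20 kb of their gene bodies was taken. Within 20 kb of these genes lay 10 of the 20410 WT peaks and 12 of the 22733 DKO peaks. The study asked whether the DNA methyltransferases Dnmt3a and Dnmt3b limit how mesoderm cells respond to Gata4, a zinc-finger factor of heart and endoderm, and it compared Gata4 ChIP-seq in 4 libraries.

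The WT Flk1(+) library came from clone J1G4.2 by its label (the study's methods give the name with further digits) and the DKO Flk1(+) library from clone 16G4.3, which is *Dnmt3a*-/-*Dnmt3b*-/-. Both clones derive from the J1 ES cell line of 129 background. In both, a fusion of Gata4 with the steroid-binding part of the human glucocorticoid receptor (Gata4GR) was expressed from the ubiquitous CAG promoter, so that dexamethasone (Dex) brings the fusion protein into action. The cells were differentiated on OP9 stroma for 4.5 days, given Dex (100 nM, 3 hours) and sorted with magnetic beads for Flk1, a surface receptor of early mesoderm. The controls were undifferentiated WT and DKO ES cells without Dex, which by the study's text also expressed Gata4GR. They were precipitated with the same mixture of anti-Gata4 antibodies, and the labels do not name their clones. Each condition had 1 library and each genotype was 1 clone, so clone and genotype cannot be told apart, and no difference below carries an error or a test. RNA was not measured in this series, and the expression of these genes and the identity of the sorted cells could not be checked here. Read depth is not part of the peak lists, but the study's methods give more mapped reads for the DKO than for the WT Flk1(+) library. How far this decided which weak peaks were listed in only 1 genotype was not tested.

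Pou5f1 (Oct4), Sox2 and Nanog form the core of a self-reinforcing network of transcription factors that keeps ES cells undifferentiated. Klf4, Klf2, Esrrb, Tfcp2l1 and Prdm14 strengthen the naive state, while Zfp42 (Rex1) and Lin28a mark undifferentiated cells. Most of the network is shut off as cells enter mesoderm, and at several of its genes promoter or enhancer methylation by Dnmt3a and Dnmt3b accompanies that change.

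The 22 peaks formed 13 separate sites when peaks were joined whose windows, the peak position and 250 bases on each side, overlapped. Both lists had a peak at 6 of these sites, the WT list alone at 2 and the DKO list alone at 5. The matching shares over all sites of the lists were not computed. Stretches from 6 sites are printed, of 2 kinds, because the readouts turn on them, and all are given on the plus strand of mm9. The first kind held GATA matches, here AGATAA or TGATAA on either strand, which are in capitals (TTATCT or TTATCA when the match is on the minus strand). The *Esrrb* stretches, in intron 1, are shown because most of the matches under peaks were in this gene, the *Klf4* stretch because WT and DKO peaks lay on either side of its match, and the *Sox2* stretch because its matches lay away from the peak.
Esrrb intron, DKO list alone, chr12:87729979-87730268: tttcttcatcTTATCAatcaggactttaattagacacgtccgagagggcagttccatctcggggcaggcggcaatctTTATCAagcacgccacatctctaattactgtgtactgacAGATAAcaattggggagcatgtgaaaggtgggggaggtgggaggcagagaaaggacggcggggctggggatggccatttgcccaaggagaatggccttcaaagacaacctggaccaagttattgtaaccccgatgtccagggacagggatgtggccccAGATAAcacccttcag
Esrrb intron, both lists, chr12:87736341-87736461: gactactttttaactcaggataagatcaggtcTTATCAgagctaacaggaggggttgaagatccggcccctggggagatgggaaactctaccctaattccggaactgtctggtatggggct
Klf4 upstream, both lists, chr4:55546026-55546146: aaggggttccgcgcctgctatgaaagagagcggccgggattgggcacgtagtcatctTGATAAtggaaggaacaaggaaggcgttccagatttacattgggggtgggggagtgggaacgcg
Sox2 upstream, WT list alone, chr3:34538706-34538884: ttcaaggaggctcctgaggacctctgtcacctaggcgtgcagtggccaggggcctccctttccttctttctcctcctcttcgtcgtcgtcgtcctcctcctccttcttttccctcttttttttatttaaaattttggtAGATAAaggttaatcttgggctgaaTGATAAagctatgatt

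The second kind was CpG-rich and lay at a start site, with no GATA match in the window. Not every site was of either kind. The *Prdm14* window had few CpGs and no match, and the DKO window upstream of *Klf4* had 53 CpGs and a match. CpG-rich windows without a match also lay away from a start site, in coding exon 3 of *Klf4* and downstream of that gene. The stretches next to *Klf2* and to the *Tcf19* and *Cchcr1* start sites near *Pou5f1* are shown with each CpG, the dinucleotide that Dnmt3a and Dnmt3b methylate, in capitals. The stretch near *Pou5f1* lies between the *Tcf19* and *Cchcr1* start sites and holds neither of them.
Klf2 upstream, both lists, chr8:74842553-74842673: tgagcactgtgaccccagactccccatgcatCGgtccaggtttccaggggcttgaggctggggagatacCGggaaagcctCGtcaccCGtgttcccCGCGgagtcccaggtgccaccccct
Tcf19 and Cchcr1 start sites, both lists, chr17:35653837-35653957: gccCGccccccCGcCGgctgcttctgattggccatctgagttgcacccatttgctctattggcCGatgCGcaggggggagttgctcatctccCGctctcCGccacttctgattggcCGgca

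Within 5 kb, 4 of the 10 genes had a WT peak (*Klf4*, *Klf2*, *Esrrb* and *Prdm14*), and 39.4% of all protein-coding genes did. The DKO list also had peaks at 4 of the 10 genes (*Klf4*, *Klf2*, *Esrrb* and *Lin28a*), and 49.1% of all genes had one. Peaks of both lists lay within 5 kb of 3 of the genes, *Klf4*, *Klf2* and *Esrrb*, where the share among all genes was 31.9%. With only 10 genes, the counts of pluripotency genes were therefore close to the shares of all genes in both lists.

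At 20 kb, *Pou5f1* and *Sox2* were added in both lists, while *Prdm14* had only a WT peak and *Lin28a* only a DKO peak. This made 6 genes with a WT peak and 6 with a DKO peak, beside 52.5% and 59.9% of all genes. No peak of either list lay within 20 kb of *Nanog*, *Zfp42* or *Tfcp2l1*, and 32.4% of all genes had none. At 50 kb, 9 genes had a WT peak and 7 a DKO peak, beside 67.1% and 70.4% of all genes. The plot of genes with a peak by distance shows the WT and DKO counts of the pluripotency genes equal from 5 to 20 kb and apart from 50 kb on.

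**Figure D1:**
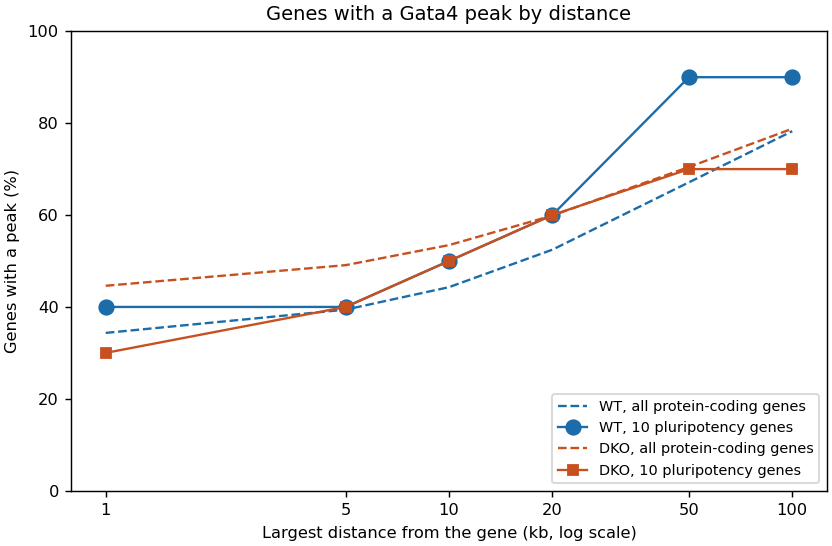
Share of the 10 pluripotency genes (points) and of all 22225 protein-coding genes (dashed lines) with a peak within the distance on the x axis (kb, log scale), for the WT and DKO lists. Within 5 kb both lists stood at 40.0% of the pluripotency genes, and at 50 kb 9 genes had a WT peak and 7 a DKO peak.

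**Figure D2:**
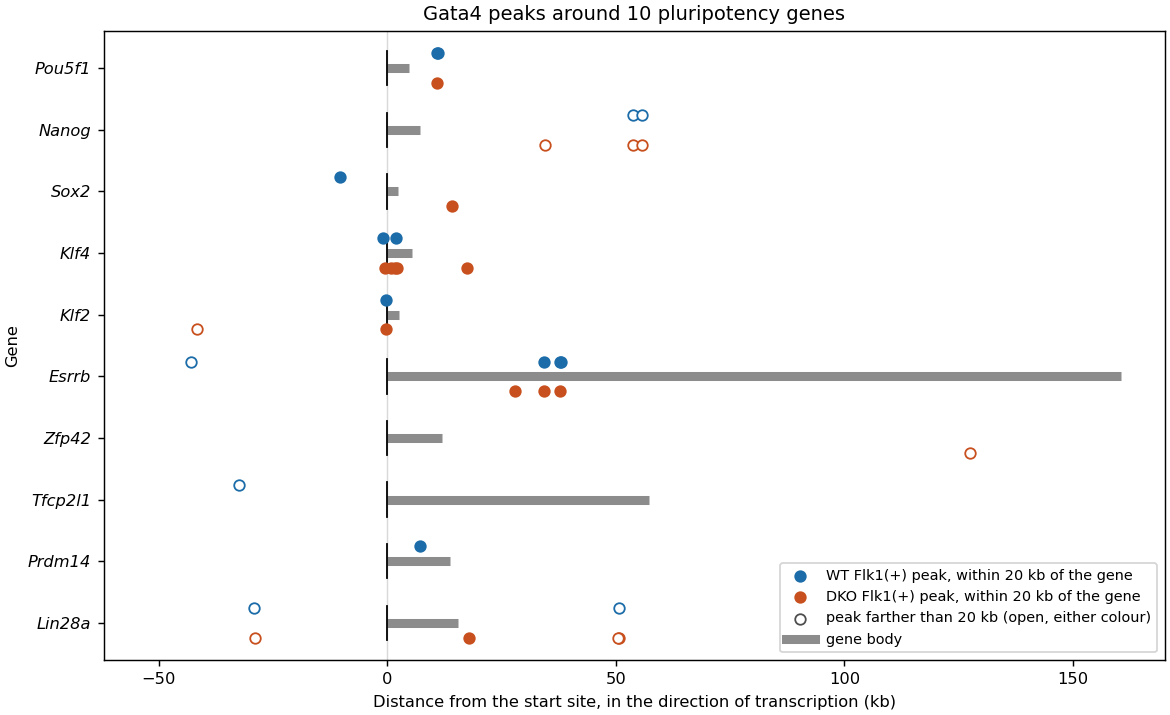
Positions of WT (above each gene body) and DKO (below) peaks relative to the start site, in kb along the direction of transcription. Filled points lie within 20 kb of the gene, and open points are peaks 20 to 50 kb away or, where there are none, the nearest one (those beyond the axis, at *Zfp42*, *Tfcp2l1* and *Prdm14*, are not drawn).

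Each listed peak has a profile height in its Flk1(+) library, the height at the same place in the ES library of its genotype, and an enrichment, which is the ratio of these heights with an ES height below 1 taken as 1. The lowest height in the lists was 5.00 and the lowest enrichment 3.00, so a place without a listed peak is not shown to lack signal, and the lists give no value there for the other library. Peaks are ranked by the authors' q-value, with rank 1 the strongest. Any scaling of the heights for read depth is not given in the sources used here, and WT and DKO heights are therefore set side by side. A lower height cannot be told apart from fewer bound cells in the sorted population.

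*Pou5f1* encodes the POU factor at the centre of the network and lies on chromosome 17 from 35642982 to 35647721 on the plus strand. No peak lay in the gene, at its start site or within 5 kb. All 3 peaks within 20 kb stood at the shared start region of *Tcf19* and *Cchcr1*, about 6.2 kb past the end of *Pou5f1*. The WT peak at 35653906, which is 137 bp upstream of *Tcf19*, had a height of 11.6 in mesoderm and 3.26 in ES cells, an enrichment of 3.55 and rank 13103. A second WT peak at 35654082, which is 37 bp inside *Cchcr1*, had a height of 10.2 and an ES height of 3.31. The DKO peak lay 9 bp from the first WT peak, at 35653897, with a height of 14.7 and an ES height of only 0.406. Its authors' enrichment was 14.7 and its rank 364, and with the ES height as listed the ratio was 36.2.

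This was the highest DKO peak within 20 kb of any of the genes, and it had the largest gap between ES heights among the 6 WT and DKO pairs near the genes. The WT ES height was 8.03 times the DKO ES height, which is at percentile 99.0 of 8489 pairs of WT and DKO peaks that were each other's nearest, with a median of 1.44 over those pairs. The WT mesoderm height was 0.786 times the DKO mesoderm height, against a median of 1.24. The enrichments at this site therefore differed more through their denominators than through the mesoderm heights. The windows held 49, 34 and 48 CpGs and no GATA match, and the start region printed above has 8 CpGs within 121 bases. By gene name the lists assign these peaks to *Cchcr1*, not to *Pou5f1*.

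*Nanog*, the homeobox factor that stabilizes the naive state, lies on chromosome 6 from 122657507 to 122664651 on the plus strand and had no peak within 20 kb. Its start region was the only one of the 10 with a GATA match within 250 bases of the start site, where 23.3% of all genes had one. The nearest DKO peak, at 122692051, lay 27400 bp downstream with a height of 5.79, an ES height of 1.05 and 1 GATA match. The nearest WT peak, at 122711287, lay 46636 bp downstream with a height of 10.1 and an ES height of 2.48. Both of these peaks lie inside *Slc2a3*, a glucose transporter gene. The DKO list had a peak 46 bp from the WT one, with a height of 6.13.

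*Sox2*, which encodes the HMG-box partner of Oct4, lies on chromosome 3 from 34548927 to 34551383 on the plus strand and had 1 peak of each list within 20 kb, on opposite sides of the gene. The WT peak at 34538716 lay 10211 bp upstream, with a height of 5.27, an ES height of 1.15 and an enrichment of 4.59. The DKO peak at 34563083 lay 11700 bp past the end, with a height of 5.11, an ES height of 1.35 and an enrichment of 3.78. The lists name both after *Sox2ot*, the long noncoding transcript that runs across *Sox2*. The peaks were 24367 bp apart and both near the height threshold, at percentiles 7.56 and 4.42 of their lists. The WT window had 16 CpGs and 2 GATA matches, which lay 131 and 156 bases from the peak position. In the DKO window there were 33 CpGs and 1 GATA match at 76 bases.

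Among the Krüppel-like factors, *Klf4* had the most DKO peaks of the 10 genes within 20 kb, though not the most WT peaks. It lies on the minus strand of chromosome 4, from 55540013 to 55545347, and the window around its start site holds 70 CpGs, more than at any other of the genes. The WT list had 2 peaks and the DKO list 4 within 5 kb, and the DKO list had a further peak 12151 bp downstream of the gene. In coding exon 3, the WT peak at 55543391 had a height of 6.24 over 1.68 in ES cells. The DKO peaks in the same exon, at 55543284 and 55543659, had heights of 7.43 over 1.72 and 5.16 over 1.62. All 3 windows overlapped, held 36 to 41 CpGs and had no GATA match.

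Upstream of *Klf4*, the WT peak at 55546244 (897 bp from the start site) had a height of 5.09 over 1.49, and the DKO peak at 55545874 (527 bp from it) a height of 5.14 over 1.71. These peaks were 370 bp apart and counted as shared because their windows overlapped. Both windows held the same single GATA match, at 55546083 to 55546088, which lay 158 bases on one side of the WT position and 212 bases on the other side of the DKO position. The WT window also held 1 AAGGTCA, the sequence Esrrb prefers, found in 8.51% of WT and 7.29% of DKO peaks. The DKO peaks without a WT partner were at 55544585 in coding exon 2, with a height of 5.36, and at 55527862, downstream of the gene, with a height of 6.82. The *Klf4* peaks ranked from 9663 to 16828 in the WT list and from 14020 to 22724 in the DKO list, the last of them near the bottom of the list.

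*Klf2*, which backs up *Klf4* in ES cells and is also a regulator of vessel-forming cells, lies on chromosome 8 from 74842932 to 74845555 on the plus strand. Each list had 1 peak, just upstream of the start site. The WT peak at 74842613 (319 bp upstream) had a height of 7.24 over 2.17 and ranked 19038. The DKO peak at 74842723 (209 bp upstream) had a height of 6.68 over 1.41 and ranked 6147. The mesoderm heights were close, with a WT to DKO ratio of 1.08, and the ES height was lower in DKO. The ES ratio of 1.54 lay near the middle of the pairs, at percentile 54.9. The windows held 31 and 41 CpGs and no GATA match. Chromosome 8 held 9.27% of the DKO peaks and 6.69% of the WT peaks, and its pairs had a median ES ratio of 1.79. The part of this in the *Klf2* values was not tested.

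*Esrrb*, the orphan nuclear receptor of the naive network, had the highest of the WT peaks within 20 kb of the 10 genes, at 12.4. It lies on chromosome 12 from 87702067 to 87862578 on the plus strand, and all its peaks within 20 kb fell in intron 1, from 27996 to 38018 bp after the first start site. At the first shared site, the WT peak at 87736429 had a height of 11.5 over 2.79 and the DKO peak at 87736424 a height of 8.64 over 1.68. At the second, the WT peaks at 87739900 and 87740085 had heights of 12.4 over 2.66 and 10.2 over 2.23, and the DKO peak at 87739856 had a height of 8.08 over 0.932. The WT to DKO ratio of mesoderm heights was 1.33 and 1.54 at these sites, against the median of 1.24 over all pairs. The ES ratios were 1.66 and 2.85, and the DKO peaks were better ranked (7310 and 3027) than their WT partners (9732 and 7179).

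The shared *Esrrb* sites had 8 to 10 CpGs in each window, where the list medians were 8 in WT and 21 in DKO. Each site carried a GATA match or more. At the first site the match at 87736373 lay 53 bases from the WT and 48 bases from the DKO peak position. A further site was listed in DKO alone. Its peak at 87730063 had a height of 5.38 over 0.911, rank 13744 and 17 CpGs, and the nearest WT peak was 6366 bp away. It held 4 GATA matches, at 71 and 4 bases before and 35 and 193 bases after the peak position, and 2.21% of DKO peaks held that many or more. Of the 9 GATA matches within 20 kb of the genes that lay under a DKO peak, 7 were in *Esrrb*, and of the 6 under a WT peak, 3 were.

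*Prdm14*, a PR-domain factor that restrains Dnmt3 expression in naive ES cells, lies on the minus strand of chromosome 1, from 13103538 to 13117244. The WT list had 1 peak in intron 5, at 13110158, with a height of 6.02 over 1.35, rank 10691, 3 CpGs and no GATA match. The DKO list had none near it, and its nearest peak was 238994 bp from the gene. *Lin28a*, the RNA-binding protein that blocks let-7 maturation, lies on the minus strand of chromosome 4, from 133559245 to 133574756, and showed the opposite. The DKO list had a peak at 133556865, 2380 bp past the end of *Lin28a* and 32 bp upstream of the start site of *Dhdds*, with a height of 8.84 over 2.20, rank 12856, 37 CpGs and no GATA match. No WT peak lay within 20 kb of *Lin28a*.

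The strongest peak of the whole neighbourhood stood 29017 bp upstream of *Lin28a*. The WT peak at 133603773 had a height of 63.9 over 1.46, an enrichment of 43.8 and rank 3 in the WT list, with 8 CpGs and 1 GATA match. The DKO list had a peak 5 bp away, at 133603768, with a height of 14.8 over 0.746 and rank 355. The nearest protein-coding gene to both was *Gm13060*, and these peaks lie outside the distance by which the other peaks were taken.

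*Zfp42*, a zinc-finger marker of undifferentiated cells, and *Tfcp2l1*, a factor downstream of LIF signalling, had no peak of either list within 20 kb. *Zfp42* lies on chromosome 8 from 44380422 to 44392363, and 64 GATA matches lay within 20 kb of it. The nearest peaks to *Zfp42* lay 114266 bp away in the WT list and 115499 bp away in the DKO list. Near *Tfcp2l1*, on chromosome 1 from 120524522 to 120581744, the WT list had a peak 32389 bp upstream at 120492133, with a height of 5.99, 2 CpGs and 4 GATA matches. The nearest DKO peak was 145838 bp away.

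**Figure D3:**
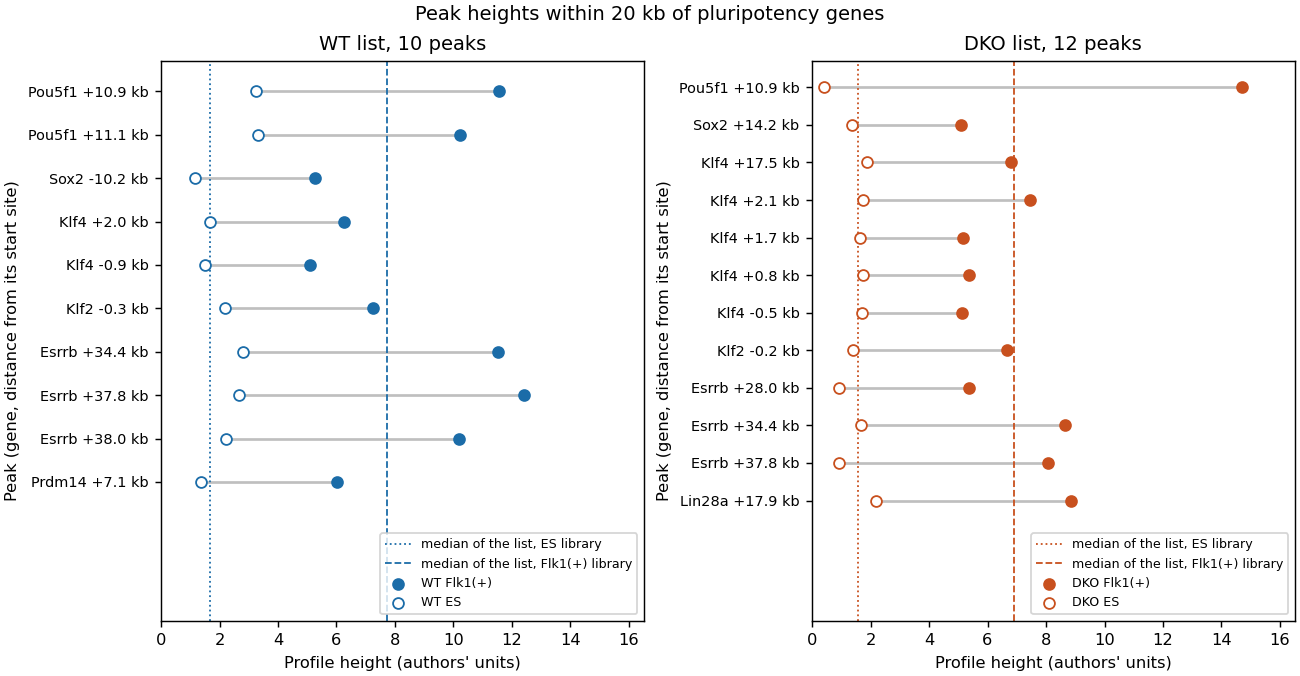
Profile height in the Flk1(+) library (filled) and the ES library (open) at each of the 10 WT and 12 DKO peaks within 20 kb of a pluripotency gene, labelled by gene and distance from its start site. Dashed and dotted lines are the medians of the whole list, and the DKO peak near *Pou5f1*, with 14.7 over 0.406, has the widest gap.

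Seen as groups, the peaks near these genes were of ordinary height. The WT peaks had heights from 5.09 to 12.4 with a median of 8.71, and the median of the list was 7.74. The DKO peaks ranged from 5.11 to 14.7 with a median of 6.75, and the list had 6.91. ES heights were above the list median at 7 of 10 WT and 7 of 12 DKO peaks, with medians of 2.20 (list 1.68) and 1.65 (list 1.58). The enrichments had medians of 3.92 (list 4.53) and 4.16 (list 4.37). The best-ranked of the 10 WT peaks stood at 7179 of 20410, and the 4 best of the 12 DKO peaks stood at 364, 3027, 6147 and 7310 of 22733. The best DKO rank belonged to the site near *Pou5f1*, and the others to *Esrrb* and *Klf2*.

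By sequence, the peaks within 20 kb held more CpGs than their lists, with medians of 18 (list 8) in WT and 36.5 (list 21) in DKO. Within 5 kb the medians were 10 in WT, close to its list, and 36 in DKO. A GATA match was present in 5 of 10 WT peaks (61.9% of the list) and in 5 of 12 DKO peaks (38.1% of the list). In the WT list 1 of the 7 match positions counted over these windows lay within 50 bases of the peak, and in the DKO list 4 of 9 did, where the shares over all matches were 46.7% and 42.7%. Away from *Esrrb*, all the matches were farther than 50 bases from the peak position. The GC box GGGCGG, which itself holds a CpG, was found in 6 WT and 10 DKO windows, against 30.7% and 47.7% of the lists. The octamer ATGCAAAT, bound by POU factors, was in none of the 22 windows (2.42% of WT and 1.83% of DKO peaks), and the Sox motif AACAATG was in none (5.60% and 4.98%).

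**Figure D4:**
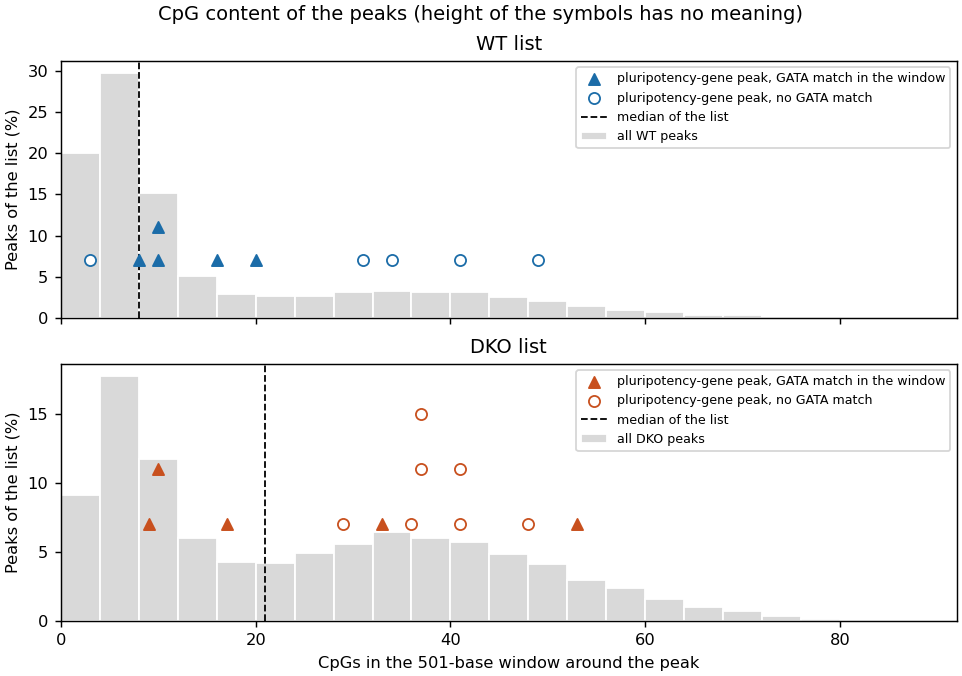
CpGs per window (the peak position and 250 bases on each side) for all peaks of each list (grey bars, percent of the list) and for the peaks near pluripotency genes (symbols, stacked only to keep them apart). Filled triangles have a GATA match and open circles have none, and the median of each list (8 in WT, 21 in DKO) is dashed.

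**Figure D5:**
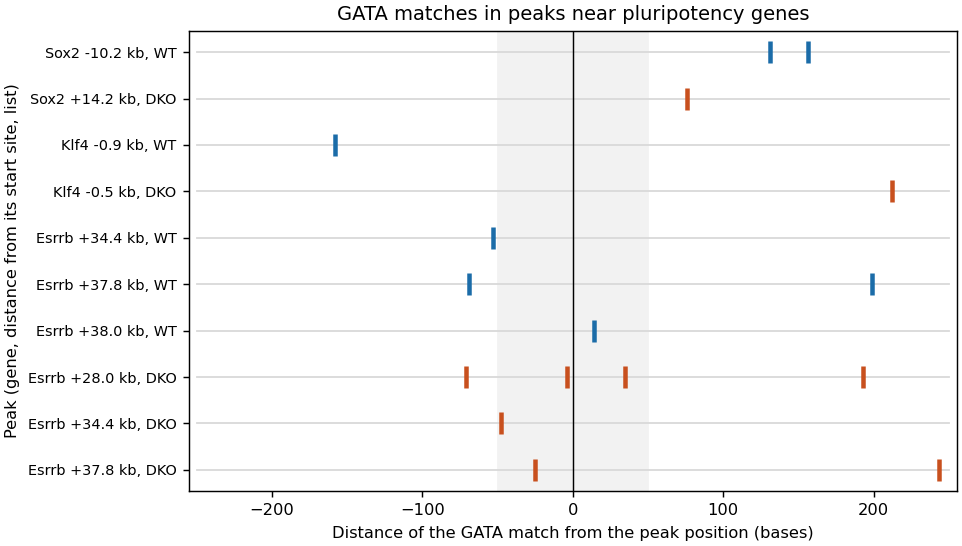
Distance in bases from the peak position to each GATA match in the windows near pluripotency genes, by peak and list. The grey band marks 50 bases on each side, and all 5 matches inside it belong to *Esrrb*.

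An overlapping DKO peak was found for 8 of the 10 WT peaks and an overlapping WT peak for 7 of the 12 DKO peaks, where 45.6% of all WT and 45.1% of all DKO peaks were shared. The DKO count was thus not far from the share of its whole list. The shared peaks were at *Esrrb* (3 of 3 WT, 2 of 3 DKO), *Klf4* (2 of 2 WT, 3 of 5 DKO), *Klf2* (1 of each) and the site near *Pou5f1* (2 WT, 1 DKO), and the peaks of *Sox2*, *Prdm14* and *Lin28a* were in 1 list each. Several neighbouring peaks of a site share the same partner, and by site 6 of 13 were shared. A share by site over the whole lists was not computed, and the shares by peak cannot stand in for it. With peak positions required to lie within 100 bp, 3 of the 10 WT and 3 of the 12 DKO peaks were shared, beside 34.7% of all WT and 31.2% of all DKO peaks.

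CpG-rich start sites were too few among these genes to be set apart from all genes with such start sites. Of the 10 genes, *Sox2*, *Klf4*, *Klf2* and *Tfcp2l1* had 30 or more CpGs around their start sites (35, 70, 47 and 35), and the other 6 had from 7 to 20. A WT peak lay within 1 kb of the start site at 2 of these 4, *Klf4* and *Klf2*, and so did a DKO peak. Over all genes with such start sites, 39.1% had a WT peak there and 62.7% a DKO peak. The CpG-rich start sites of *Sox2* and *Tfcp2l1* had no listed peak within 10 kb.

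Most GATA sequences near the genes were without a peak, as were most over the genome. The share under a peak was above that of the whole genome in both lists, on few matches. The genome share also counts sequence far from genes, and the share near all protein-coding genes was not computed. The excess is therefore not read as a trait of these genes. The gene bodies and 20 kb on each side contained 628 matches, from 29 at *Klf2* to 183 at the long *Esrrb* gene. Of these 6 lay in the window of a WT peak (0.955%) and 9 in that of a DKO peak (1.43%), and over the genome 0.588% and 0.389% of 3718780 matches did. Since 7 of the 9 were in *Esrrb*, the other 9 genes together had 2 matches under a DKO peak.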

How the data were processed

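Gata4 ChIP-seq peak lists of WT and DKO Flk1(+) cells, each called against the ES library of its genotype, were used as deposited. Per the labels' processing notes the submitters used CASAVA 1.8.1 and cutadapt, and the authors called peaks with DNAnexus tools on mm9. The aligner is not given in the sources used here. Lists were assigned to genotypes by the number of peaks the study's methods state. The lists give the signal (profile height) in both libraries, the authors' fold ratio, the deposited −log10 q-value and a deposited score used as rank.

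Peaks were counted once and placed by GENCODE vM1 gene bodies. Shared peaks have windows (250 bp on each side) that overlap by at least 1 bp. Sequences come from the deposited windows, which equalled mm9 for 20409 of 20410 WT peaks (the mitochondrial window was not compared) and all 22733 DKO peaks. The sequence of 1 *Esrrb* stretch is not reported here. Motif and overlap code was tested on simulated data. Named genes were all 10 pluripotency genes, the gene nearest each peak, and, from 4 wider lists, at most 5 with the highest peak per list and at most 5 found in 1 list only. *Nanog* and *Lin28a* peaks beyond 20 kb were added after their values were seen. Genes and lists were chosen with earlier results of these data known. Python 3.11.15, NumPy 2.4.6, pandas 2.3.3 and Matplotlib 3.10.9 were used.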

Additional observations from a re-analysis of the deposited data

How the results depend on the processing

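No paired analysis was possible because each condition had 1 library. With 1 library per condition no replicate could be left out, and depth limits which weak sites are listed. The number of pluripotency genes with a peak, 4 in each list within 5 kb, became 9 (WT) and 7 (DKO) within 50 kb. It became 2 in each list when the peak had to lie within 5 kb of the start site and 2 in each with the best-ranked 50% of the peaks, and 2 in WT with a height of at least 7. Requiring positions within 100 bp lowered the shared peaks within 5 kb from 6 to 2 in each list, and within 20 kb from 8 (WT) and 7 (DKO) to 3 in each. In the central 200 bp, 3 WT peaks in place of 5 had a GATA match. The other 20 values stayed within 1.5 times the reported ones, among them the counts by the authors' own gene names. Of the 22 enrichments, 21 barely moved when the ES height was used as listed, and the DKO peak near *Pou5f1* rose from 14.7 to 36.2.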

Other observations

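Beyond the 10 genes, 4 wider lists of 49 pluripotency-related genes were counted by peaks within 5 kb. The list of the primed or formative state includes *T* and *Foxa2*, which the study uses as mesoderm and endoderm markers. A WT peak was found at 23 of the 49 genes and a DKO peak at 21, where 39.4% and 49.1% of all genes had one. Both lists had peaks at 17, where 31.9% of all genes had both. The WT list alone had peaks at 6, the DKO list alone at 4 and neither at 22. Of all 22225 genes, 8759 had a WT peak, 10911 a DKO peak and 7092 both. More genes were therefore in the DKO list alone than in the WT list alone. Among the 49 genes the order was the reverse, 6 in WT alone against 4 in DKO alone, on few genes and without a test. The 22 genes with neither are given without a share of all genes. Genes named below for either list alone are examples only. The lists differed in coverage. Of 17 markers of undifferentiated cells 4 had a WT and 4 a DKO peak, and of 5 genes of the LIF and Stat3 pathway 4 had both. Of 16 further naive regulators 9 had a WT and 9 a DKO peak, and of 11 genes of the primed or formative state 6 had a WT peak, 4 a DKO peak and 2 both.

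The highest WT peaks of the wider lists were at *Tdgf1*, which encodes the Nodal co-receptor Cripto (height 35.2, rank 172), *Tet1*, a 5-methylcytosine oxidase (27.3), *Zic2* (22.5), *Cdh1*, which encodes E-cadherin (20.7), and *Socs3*, the feedback inhibitor of Stat3 (20.2). The highest DKO peaks were at *Socs3* (15.7), *Mybl2* (13.9), *Stat3* (13.7), *Tet1* (12.9) and *Tdgf1* (11.8). At *Tdgf1*, *Tet1*, *Stat3* and *Socs3* the highest peak of each list overlapped a peak of the other list. All of these WT peaks were higher than any WT peak within 20 kb of the 10 pluripotency genes. They were picked as the highest among 49 genes, so this order says nothing about binding at the 10 genes.

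In the WT list alone were *Zic2* and *Gdf3*, a TGF-beta family ligand, with heights of 22.5 and 18.1 at ranks 1963 and 493. The other examples were lower, with *Otx2* at 9.05, *Foxa2* at 6.59 and *T*, the mesoderm factor Brachyury, at 6.20. The DKO list alone had *Mybl2* (13.9), *Fgf4* (9.97), *Lefty1* (7.44) and *Pou3f1* (5.83). At *Kdr*, the gene of the Flk1 receptor used for the sort, both lists had strong peaks, 6 in WT with the highest at 39.7 (rank 19) and 5 in DKO with the highest at 28.2 (rank 23).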
